A study of Mus musculus with 6 samples.

Results

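The genes Gata2, Tal1, Lyl1, Lmo2, Ldb1, Gfi1, Gfi1b and Myb encode transcription factors and bridging proteins of early blood cells, and every listed peak that carries one of these 8 gene names is described here. The members were taken by name, out of 20691 genes named in any of the 4 peak lists. They held 69 of the 143365 distinct ATAC intervals, 1 of the 885 STAT3 peaks, none of the 3016 SOX4 peaks and none of the 2525 GABPa peaks. All libraries came from EML cells, a mouse progenitor line of blood derived from the strain B6D2F1 by the labels, grown in suspension, and their lin-CD34+ and lin-CD34- fractions were separated by magnetic and then flow sorting. STAT3 and SOX4 were mapped by ChIP-seq in lin-CD34+ cells and GABPa in lin-CD34- cells. Open chromatin was mapped by ATAC-seq, in which a transposase cuts accessible DNA, in lin-CD34+ cells. Each population also had 1 control library, titled input and carrying IgG as its antibody, for which no list was analysed here. With 1 library of 1 cell line in every group, no difference can be judged against replicate error, and all values below are counts and positions without a test.

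TAL1 and LYL1 are related basic helix-loop-helix proteins that bind short DNA elements called E-boxes together with E proteins. LMO2 does not bind DNA itself. It bridges TAL1 or LYL1 to a GATA factor such as GATA2 and also binds LDB1. The complex can thus sit on neighbouring E-box and GATA elements. GFI1 and GFI1B are zinc finger repressors that recruit the demethylase LSD1 and its CoREST partners, and MYB is an activator needed for the expansion of blood progenitors. Several of these genes are known in mouse blood cells to be regulated through several starts and through enhancers inside and outside the gene. The lists used here hold no protein or expression values for them, so the complex itself was not measured.

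The lists set bounds on what can be seen. Tags per listed peak ran from 11 to 112 for STAT3, from 8 to 29 for SOX4 and from 10 to 215 for GABPa; the sources used here give no total of reads per library. All lists end at 5000 bp before the nearest start, and enhancers beyond that distance were not analysed here. ATAC entries carry no score, which leaves width as the measure of an interval's size. The number of times an interval is listed is also given, but what it stands for was not examined. ATAC intervals lay within 1000 bp of a start at the progenitor markers Cd34, Kit, Ly6a and Flt3. Among lineage markers they did so at Cd79a and Itgam and not at Cd3e, Cd3g, Ly6g and Klrb1c. Of 4 non-blood markers, Myod1 had one and Alb, Ins2 and Neurod1 had none.

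The sequences just upstream of the starts are shown first, because the members differ there in base composition, in motif letters and in whether an ATAC interval reaches them. They are the 250 bases before a RefSeq start (GRCm38.p6, the assembly also named mm10), 5′ to 3′ on the gene's strand, for the starts on which the text below turns. Starts are numbered along the direction of transcription. Capitals mark matches, on either strand, to the motif letters GATAA (GATA factors), CATCTG (E-box), TTCNNNGAA (STAT), CCGGAA (ETS, the family of GABPa), AACAAT (SOX) and AAATC (GFI).
Lyl1, only start (chr8:84701207-84701456, plus strand): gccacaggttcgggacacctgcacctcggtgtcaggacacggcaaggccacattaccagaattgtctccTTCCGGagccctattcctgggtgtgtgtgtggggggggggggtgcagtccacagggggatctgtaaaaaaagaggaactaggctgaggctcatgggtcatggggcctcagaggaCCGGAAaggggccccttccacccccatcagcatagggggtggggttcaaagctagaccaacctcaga
Gfi1b, only start (chr2:28621983-28622232, minus strand): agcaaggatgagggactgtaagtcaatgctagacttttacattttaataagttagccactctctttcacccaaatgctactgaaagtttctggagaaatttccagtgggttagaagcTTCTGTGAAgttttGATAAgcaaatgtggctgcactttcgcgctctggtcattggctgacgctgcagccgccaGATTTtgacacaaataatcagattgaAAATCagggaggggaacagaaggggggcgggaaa
Tal1, start 1 (chr4:115056176-115056425, plus strand): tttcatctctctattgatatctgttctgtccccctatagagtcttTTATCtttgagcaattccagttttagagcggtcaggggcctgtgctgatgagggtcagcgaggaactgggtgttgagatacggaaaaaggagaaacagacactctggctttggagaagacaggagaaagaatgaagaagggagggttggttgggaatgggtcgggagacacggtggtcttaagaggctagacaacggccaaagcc
Tal1, start 2 (chr4:115057561-115057810, plus strand): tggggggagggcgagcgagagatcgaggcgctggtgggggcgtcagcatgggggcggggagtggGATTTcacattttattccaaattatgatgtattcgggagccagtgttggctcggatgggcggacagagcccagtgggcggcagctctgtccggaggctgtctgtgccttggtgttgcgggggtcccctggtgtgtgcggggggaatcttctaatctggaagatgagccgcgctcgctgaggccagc
Gata2, start 1 (chr6:88193641-88193890, plus strand): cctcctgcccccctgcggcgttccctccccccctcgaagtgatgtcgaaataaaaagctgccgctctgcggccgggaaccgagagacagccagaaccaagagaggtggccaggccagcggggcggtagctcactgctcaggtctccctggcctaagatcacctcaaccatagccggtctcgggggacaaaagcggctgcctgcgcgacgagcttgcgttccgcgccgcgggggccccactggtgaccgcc
Ldb1, start 3 (chr19:46037071-46037320, minus strand): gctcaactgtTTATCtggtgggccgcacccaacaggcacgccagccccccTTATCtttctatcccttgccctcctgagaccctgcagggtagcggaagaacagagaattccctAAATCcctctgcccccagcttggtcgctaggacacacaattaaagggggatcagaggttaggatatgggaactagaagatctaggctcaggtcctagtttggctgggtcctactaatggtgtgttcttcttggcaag

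Of these 6 stretches the Gata2 one holds no motif letters, the Lyl1 one holds CCGGAA on each strand, and the Gfi1b one holds letters for GATA, STAT and GFI between −133 and −30 bases from the start. Start 3 of Ldb1 has GATAA on the opposite strand at 2 places.

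Every member had open chromatin at a start in lin-CD34+ cells. ATAC intervals lay within 1000 bp of a start at 8 of 8 members, against 68.2% of all genes named in any list. Lmo2, Ldb1 and Gfi1 had 4 each, Tal1 and Myb 3 each, Gfi1b 2, and Gata2 and Lyl1 1 each. The median was 3 for the members and 1 for all genes. In all, 6 of 8 members had 2 or more, against 22.6% of all genes. The number of annotated starts per gene was not taken into account.

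**Figure D1:**
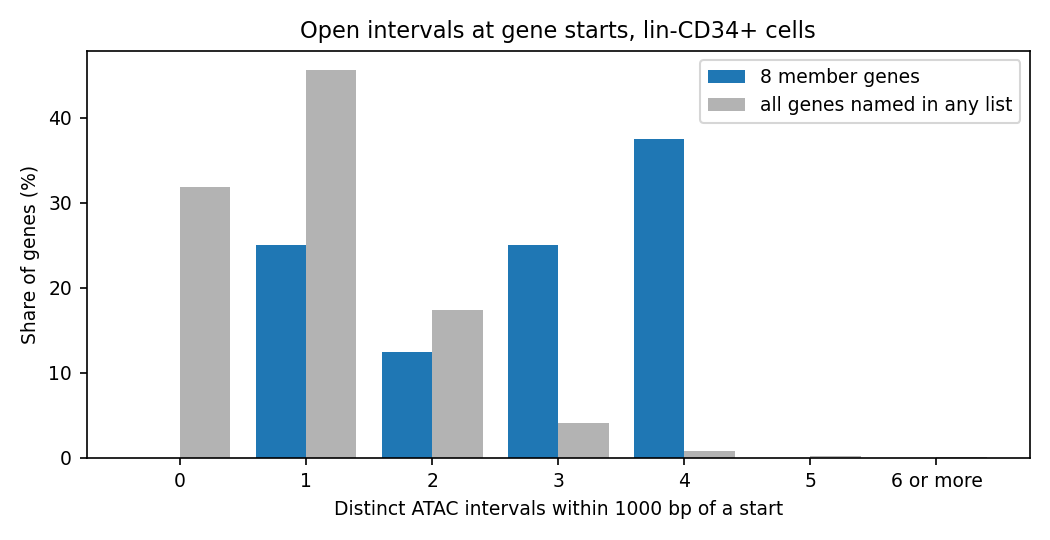
Share of genes (%) by the number of distinct ATAC intervals within 1000 bp of a start, for the 8 members (blue) and all genes named in any list (grey). No member is at 0, where 31.8% of all genes lie, and 3 members are at 4, where 0.841% of all genes lie.

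RefSeq places 12 promoter windows, each from 250 bases before to 50 bases after a start, at 7 of the members. Lmo2 had no entry in that table. An ATAC interval overlapped 10 of the 12 windows, against 48.0% of the windows of coding genes and 35.6% of all windows. The members' open windows were covered over a median of 77.8% of their bases, and all open windows over 100%. Of the 4 members with more than 1 window, Gata2, Gfi1 and Ldb1 had at least 2 open, against 30.6% of all genes with more than 1 window. The windows without an interval were start 1 of Tal1 and start 3 of Ldb1.

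The members' windows were rich in G and C, at a median of 62.2% (44.3 to 75) against 52.7% for all windows. Open windows of any gene had a median of 61.3% and the others 48.7%. The windows of Myb (75%, with 40 CpG pairs), start 2 of Gata2 (73.7%) and start 1 of Ldb1 (71.3%, with 41 CpG pairs) were the richest. Gfi1b had the lowest share, 44.3% with 7 CpG pairs, and was open over 205 of its 300 bases.

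At least 1 motif was found in 7 of the 12 windows, and each motif in about the share of windows that holds it in the whole table, so the counts are no result about the members. GATAA was found in 3 of the 12 (25% against 25.4% of all windows and 15.4% of the open ones), at Gfi1b, start 1 of Tal1 and start 3 of Ldb1. Gfi1b alone carried it inside an ATAC interval, at −119 to −115 from the start, just after TTCTGTGAA at −133 to −125, which was also the members' only STAT motif match (8.33% against 8.30% of all windows and 6.52% of the open ones). CCGGAA was found at Lyl1 and at start 2 of Gfi1 (16.7% against 14.9% of all windows and 29.1% of the open ones). At Lyl1 the copy at −67 to −62 lay inside an ATAC interval and the copy at −181 to −176 outside it. CATCTG was found at start 1 of Tal1 and at Myb, downstream of both starts (16.7% against 17.2% of all windows and 11.4% of the open ones). AAATC was found in 4 windows (33.3% against 35.9% of all and 25.6% of the open ones). No member window held AACAAT (10.7% of all and 5.31% of the open ones) or CANNTG followed by GATA after 6 to 12 bases (3.67% of all and 1.89% of the open ones). No matches of different motifs overlapped. These are letters in short windows and do not show that a factor was bound.

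Gata2, the GATA factor of stem and progenitor cells, had 5 intervals, and each of its starts was open. The authors' table gives the gene 1 start and lists the interval at 88193654 to 88193913 as intergenic, at −4881 bp from it. By RefSeq that interval, 260 bp wide, covers start 1, its centre lying 108 bp before it, in the sequence printed above. A second interval of 131 bp followed at 88194391. The downstream start lay inside an interval of 318 bp (88198552 to 88198869). An interval of 115 bp in exon 4 and one of 514 bp in intron 4 (88202998 to 88203511) lay farther inside the gene. The intronic one was the widest of the gene and was listed 3 times. Its centre lay 9363 bp downstream of start 1 and 4590 bp downstream of the other start. Mouse Gata2 is known for an enhancer in an intron with neighbouring E-box and GATA elements, but the interval's sequence was not read here.

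Tal1, the partner of the E proteins at E-boxes, had 8 intervals and the second widest interval of the members. Its start region held 3 intervals of 719, 215 and 306 bp, with gaps of 100 and 141 bp, over 1481 bp from first to last base. The first of these began 53 bp downstream of start 1, so the printed stretch before that start lay outside any interval, while start 2 lay inside the interval of 306 bp. Intron 2 held an interval of 953 bp (115062552 to 115063504), wider than 98.0% of all ATAC intervals and listed 5 times (2.79% of all intervals were listed at least as often). Another of 453 bp followed in intron 3 after 262 bp. Intron 4 held one of 73 bp. Upstream, an interval of 332 bp had its centre at −3637 bp and one of 73 bp, in a repeat, at −1458 bp. No interval under another gene's name lay within 10000 bp of Tal1.

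Lyl1, the relative of Tal1, was the only member with a peak of a mapped factor. A STAT3 peak lay in intron 3 of 3 (chromosome 8, 84703387 to 84703681, 295 bp), 2077 bp downstream of the start. It had 30 tags, a score of 111.81 (−10 times the log10 of the caller's p-value), 22.3-fold enrichment over the caller's background and a false discovery rate of 1.79%. Medians of the STAT3 list were 30 for tags, 92.5 for the score and 22.3 for the fold. The Lyl1 peak was thus typical of the list in tags and fold, and its score ranked 280 of 885. An ATAC interval of 130 bp (84703466 to 84703595) lay wholly inside it and covered 44.1% of it. The STAT3 summit lay 21 bp past the end of that interval, if its offset is counted from 1 at the first base of the peak, which the files do not state. Of all STAT3 peaks, 78.4% (75.6 to 81.1, exact 95% interval for counting error only) overlapped an ATAC interval, and of its 392 intronic peaks 62.2% (57.2 to 67.1). The start of Lyl1 lay in another interval, of 526 bp (84701363 to 84701888), which covered 144 of the window's 300 bases and held the nearer CCGGAA of the printed sequence.

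Most of the intervals that carry the name Lyl1 lay in another gene. Of its 13, only the 2 above were in Lyl1, 10 were annotated to transcripts of the neighbouring gene Nfix, and 1 (433 bp, at −1370 bp) to the end of Trmt1. Nfix encodes a nuclear factor I protein. The widest interval of all members, 1129 bp at 84722790 to 84723918 and listed 5 times, was one of these, as were intervals of 895 and 563 bp. By coordinates, counting only the gene and the 5000 bp upstream, Lyl1 held 3 intervals. Which gene these elements act on was not measured.

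Lmo2, the bridging protein, had 10 intervals, and none was listed at its most upstream start. By the authors' distances its starts lay at 103957995, 103969557 and 103970287 on chromosome 2. No interval was listed within 1979 bp of the first. The second lay in an interval of 446 bp and the third in one of 335 bp, with intervals of 78 and 73 bp following in the next intron. Upstream of the first start were intervals of 170, 146 and 73 bp, the last 2 in an MLTR11B element, a retroviral repeat. An interval of 73 bp lay in intron 1 and another in intron 3, and one of 284 bp lay past the gene's end (103982256 to 103982539).

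Ldb1, the dimerising adaptor to which LMO2 binds, had 7 intervals, of which 4 lay at starts. The interval at start 1 was 730 bp wide (46044906 to 46045635), was listed 4 times and covered the whole RefSeq window, and one of 110 bp lay just upstream. The RefSeq gene entry reaches farther upstream than start 1, to 46048145, and no interval was listed within 1000 bp of that end. Start 2 was covered by an interval of 372 bp, with one of 233 bp upstream. Start 3, whose sequence is printed above, lay 2453 bp from the nearest interval. The other 3 intervals (127, 124 and 73 bp) lay in intron 1, in the last exon and at the gene's end.

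The GFI repressor genes differed in layout. Gfi1 had 7 intervals. The one at start 1 was 772 bp wide (107725577 to 107726348), wider than 96.1% of all intervals, and was listed 4 times. At start 2 an interval of 306 bp began 26 bp downstream of the start and touched 24 bases of the window. Narrower ones lay at −547 bp (120 bp) from start 2 and at −850 and −1079 bp (110 and 143 bp) from start 1, and 2 of 73 bp lay in intron 5 and in the 3′ UTR. Gfi1b had 4 intervals, the fewest of the members. An interval of 501 bp (28621637 to 28622137) covered its start and the GATAA, STAT and GFI letters of the printed sequence, and one of 327 bp lay at −741 bp. Another, of 331 bp in intron 1, lay in a MIR3 repeat 3035 bp downstream, and the last, of 86 bp, in exon 6.

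Myb had the most intervals, 15, in the longest gene (36055 bp). Its start was covered by an interval of 555 bp (21160732 to 21161286), listed 3 times, with one of 165 bp at −562 bp. Intron 1 held 3 intervals of 228, 224 and 90 bp, the first and second in a CpG island. Intron 3 held 2, of 293 and 364 bp, both listed 2 times. The last intron held 5 narrow ones of 73 to 209 bp. The open chromatin of Myb was therefore widest at the start, and the 2 of intron 3, at 7131 and 7654 bp, were the only others over 250 bp.

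**Figure D2:**
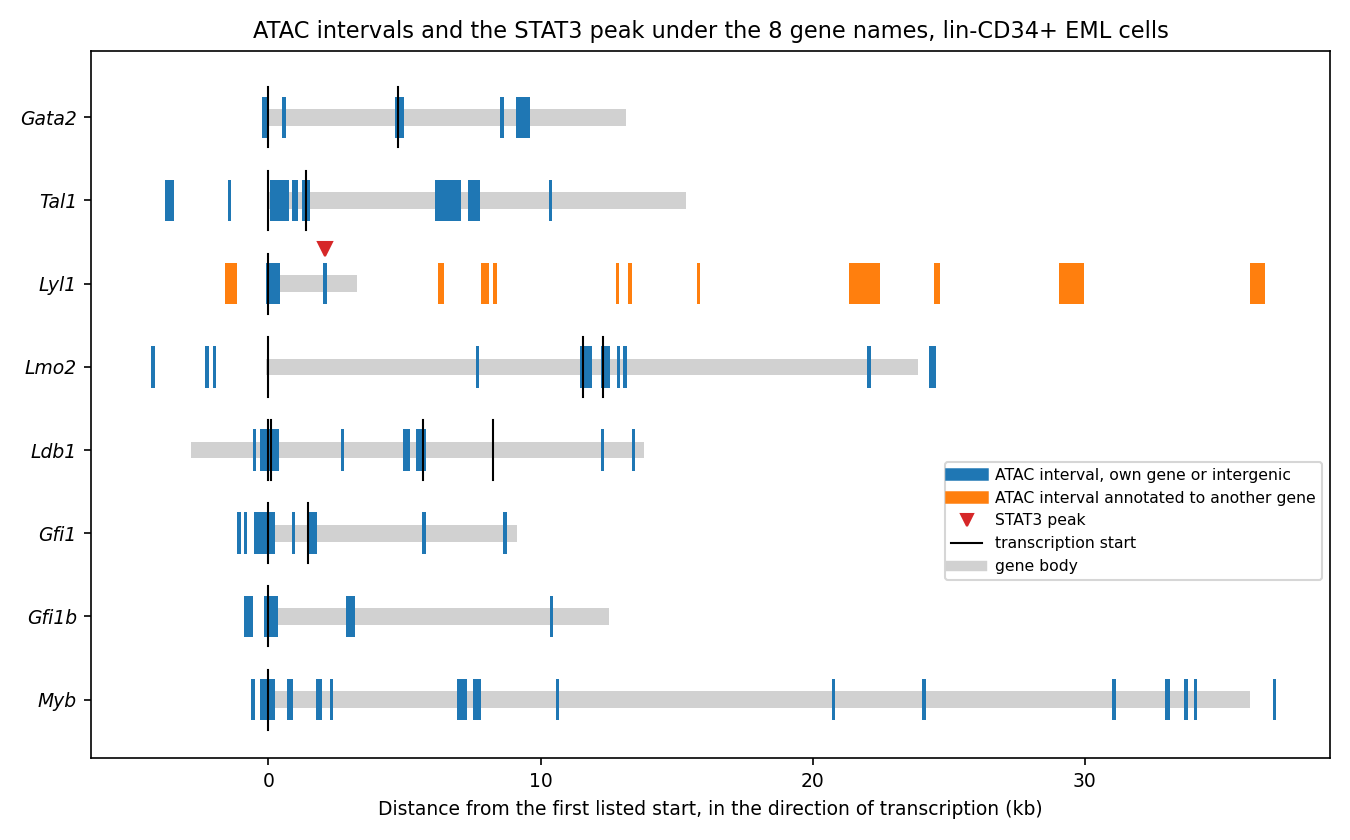
Position of every distinct ATAC interval under the 8 gene names, in kb from the first listed start along the direction of transcription, with starts as black lines, gene bodies in grey and the STAT3 peak of Lyl1 as a red triangle. The narrowest intervals are drawn wider than to scale so that they can be seen. The 11 orange intervals, all under the name Lyl1, are annotated to other genes, 10 to Nfix transcripts and 1 to the end of Trmt1.

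Across the members, intervals were more often at starts than in the whole list. These counts include the 11 under the name Lyl1 that are annotated to other genes, mostly in introns of Nfix. Of the 69, 22 lay within 1000 bp of a start (31.9%, against 14.1% of all distinct intervals), 32 were in introns (46.4% against 75.4%), and 7 were in annotated repeats (10.1% against 21.0%). Their median width was 170 bp against 132 bp. Split by position, the median widths were closer: 312 bp for the members and 316 bp for all intervals within 1000 bp of a start, and 130 bp against 123 bp beyond. Of the 69, 24 were listed more than once (34.8% against 16.8%). At the other end, 12 had the lowest width in the list, 73 bp (17.4% against 15.5%).

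**Figure D3:**
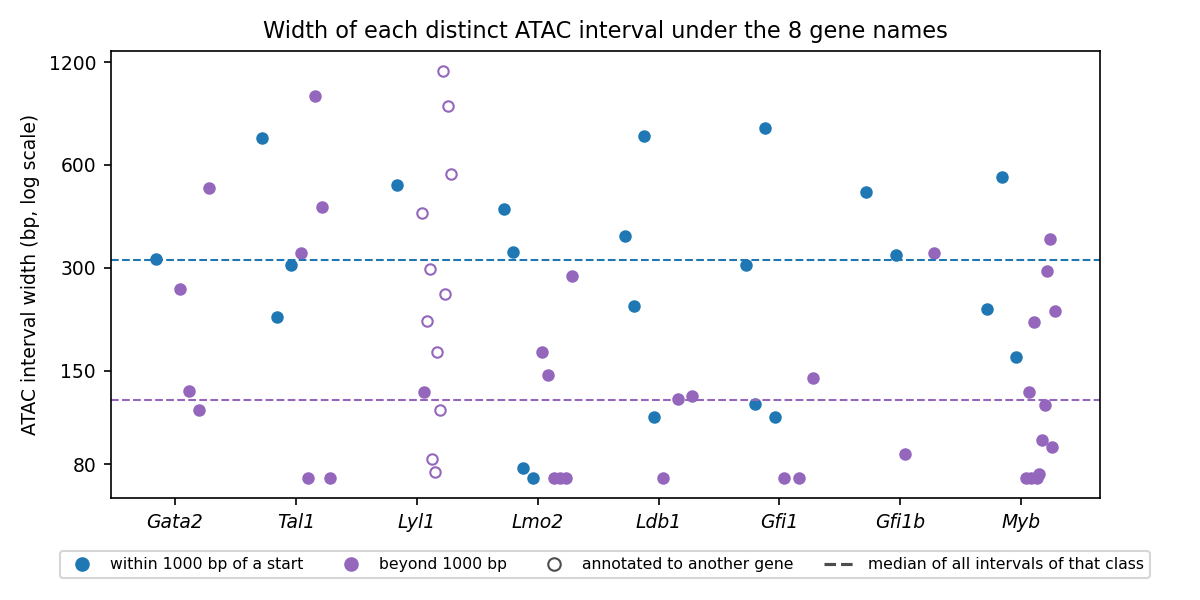
Width (bp, log scale) of each distinct ATAC interval by gene, split at 1000 bp from a start, with open circles for intervals annotated to another gene and dashed lines at the medians of all intervals, 316 and 123 bp. The widest interval near a start is that of Gfi1 (772 bp), and the widest beyond it in a member's own gene is that of Tal1 (953 bp).

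Intervals per gene had a median of 7.5 for the members and 4 for all genes. By coordinates the 8 genes and their upstream 5000 bp held 57 intervals, with a median of 7, and none of these carried another gene's name. Per 10 kb of gene body the values were 6.07 for Lyl1, 5.46 for Gfi1, 4.21 for Ldb1, 3.91 for Tal1, 3.80 for Gata2, 3.61 for Myb, 2.50 for Lmo2 and 2.39 for Gfi1b. The median was 3.86 for the members and 1.79 for 16999 coding genes. All 8 members were above that coding median, a level that splits the coding genes evenly. Gfi1b was above 64.3% of coding genes, Lmo2 above 66.8% and Lyl1 above 94.8%. No comparison with genes of like length was made. Lyl1 leads this order on 2 intervals in a gene of 3294 bp, so its place rests on few counts.

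The mapped factors were mostly not listed at these genes. A STAT3 peak at any distance carried 1 of 8 member names, against 4.12% of all genes, and none was within 1000 bp of a member's start, against 1.98%. For SOX4 there was none at any distance (12.5% of all genes) or near a start (0.764%). For GABPa, mapped in lin-CD34- cells, there was none at any distance (9.59%) or near a start (1.54%). With 8 genes, such shares leave counts of 0 or 1 close to the background. They are not a result about the members, and a gene without a listed peak is not shown to be unbound.

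Apart from the Lyl1 peak, the listed factor peaks in the neighbourhood carried other genes' names. Within 100000 bp of a member, STAT3 peaks lay near 3 of 8 members (17.0% of coding genes), SOX4 peaks near 3 (36.6%) and GABPa peaks near 1 (27.8%). A peak of any of these factors lay near 6 of 8 members, against 57.0% of coding genes. The one with most tags was a STAT3 peak in an intron of Ahi1, the gene beyond the 3′ end of Myb (chromosome 10, 21054382 to 21055147). It lay 69783 bp from Myb, had 85 tags, more than 98.8% of the STAT3 list, a fold of 14.7, and overlapped an ATAC interval. Near Ldb1 were a STAT3 peak at the start of Nolc1 (35 tags, 27525 bp away) and one in an intron of 9130011E15Rik (25 tags, 42580 bp away). Near Lyl1, besides its own peak, were a STAT3 peak upstream of Ier2 (35 tags, 37137 bp away) and a SOX4 peak in an intron of Nfix (10 tags, 65984 bp away). A SOX4 peak with 8 tags lay 92784 bp from Gfi1, one with 11 tags 99888 bp from Gfi1b, and a GABPa peak with 27 tags 91067 bp from Lmo2. No factor peak was listed within 100000 bp of Gata2 or Tal1. Whether any of these sites acts on a member was not measured.

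Partners and cofactors of these proteins gave the wider picture. A list of 47 genes held E protein, GATA factor, LIM-only, LSD1 and CoREST genes and related blood genes, the receptor gene Kit included. It was chosen with earlier results of these data known, so its shares are descriptions only. Of the 47, 46 were named in at least 1 peak list, Lmo3 being the exception. ATAC intervals lay within 1000 bp of a start at 39 of 46 (84.8%, against 68.2% of all genes), and 21 had 2 or more (45.7%, against 22.6%). Those without one included Gata1, the erythroid GATA factor, Klf1, Id4, Sp1, Ssbp4 and Rcor2. Among the E protein genes, Tcf3 had 3 such intervals, Tcf12 had 5 and Tcf4 had 2. The LSD1 gene Kdm1a had 1.

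STAT3 peaks carried the names of 6 of these 46 genes (13.0%, against 4.12% of all genes). They lay near the start at 5 (10.9%, against 1.98%), namely Runx1, Cbfb, Zfpm1, Nfe2 and Kit. As the partners were picked with earlier results known, these shares cannot be read as an enrichment. No SOX4 or GABPa peak lay within 1000 bp of a partner's start, while farther away 7 partners had a SOX4 peak (15.2%, against 12.5% of all genes at any distance) and 4 a GABPa peak (8.70%, against 9.59%). Of the core-binding factor genes, Runx1 had its peak 36 bp from the start with 40 tags, and Cbfb at −142 bp with 48 tags. Nfe2, an erythroid and megakaryocytic factor, had one at −181 bp with 36 tags, and Zfpm1, which encodes the GATA cofactor FOG1, at −564 bp with 23 tags. The peak of the receptor gene Kit lay at 922 bp with 37 tags. Runx1 had a second peak in an intron (35 tags) and Meis1, a homeobox gene, an intronic one with 33 tags. The 7 peaks overlapped ATAC intervals, as did that of Lyl1. By tags the Lyl1 peak was below all of these but Zfpm1, and by score it was above those of Kit, Nfe2 and Zfpm1.

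**Figure D4:**
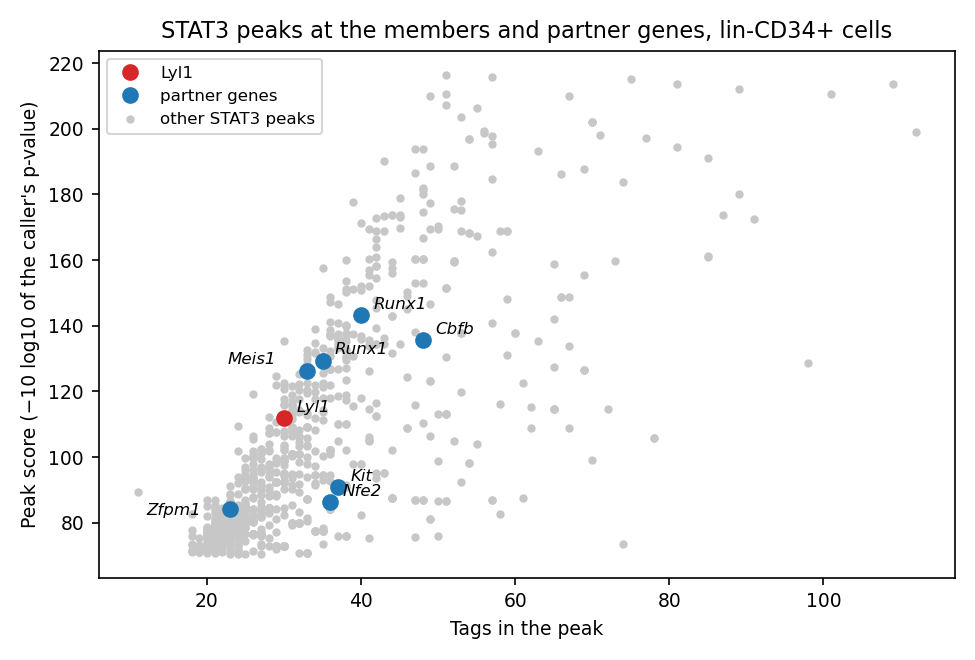
Tags against score for each of the 885 STAT3 peaks, with the Lyl1 peak in red and the peaks of partner genes in blue. Lyl1, at 30 tags and a score of 111.81, lies inside the bulk of the list.

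Over 5 features (ATAC within and beyond 1000 bp of a start, and a peak of SOX4, STAT3 or GABPa) the members other than Lyl1 had 1 pattern, ATAC in both places and no factor peak, shared with 21 partners. The closest in number of intervals were Ep300, Hdac2 and Tal2 for Gata2 (5 each), Lhx2 for Tal1 (8 each), Phf21a for Lmo2 (10 each), Mybl1 for Gfi1b (4 each) and Runx1t1 for Myb (15 intervals against 16). Ldb1 and Gfi1, with 7 each, had 5 partners that differed by 1, among them Crebbp, Isl1 and Kdm1a with 6. Lyl1 shared its pattern, with a STAT3 peak added, with 5 partners, of which Zfpm1 was closest by gene name (13 intervals against 10). That closeness rests on the 11 intervals under the name Lyl1 that are annotated to other genes. By coordinates Lyl1 held 3, and the partners were not counted that way. These features come from 4 libraries, and the likeness is a description only.

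**Figure D5:**
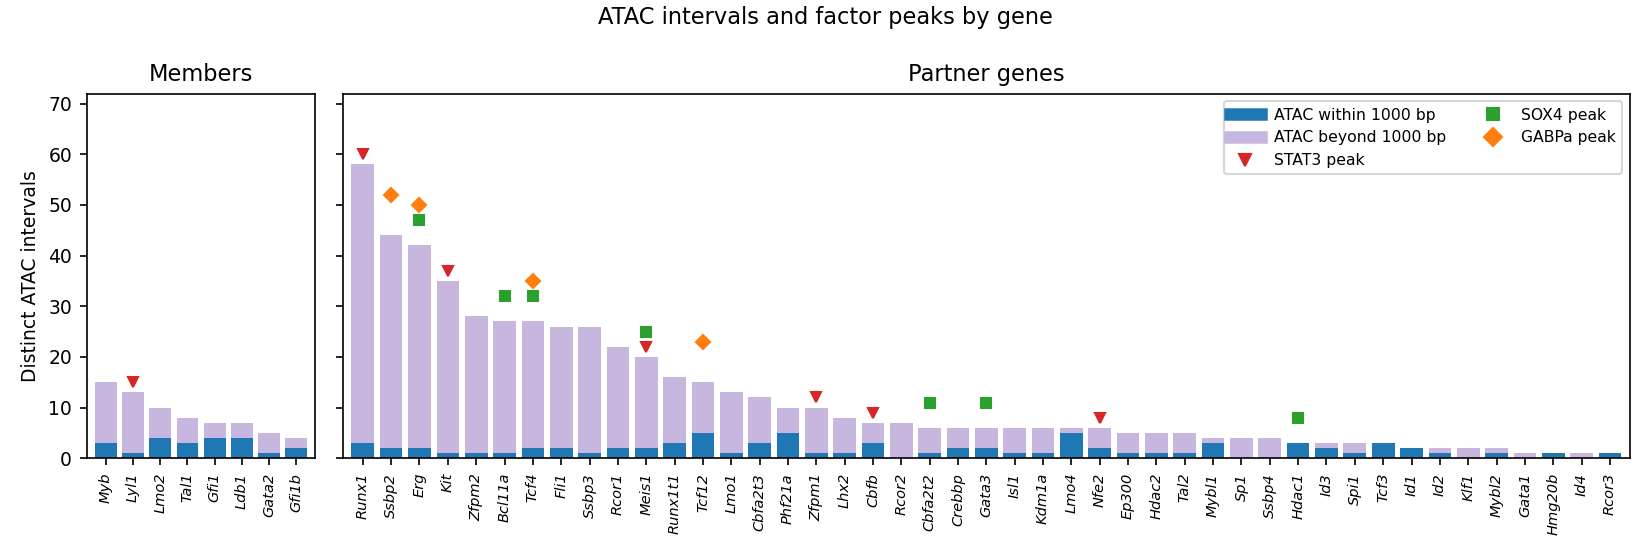
Distinct ATAC intervals per gene, within (blue) and beyond (pale) 1000 bp of a start, for the 8 members (left) and partner genes (right), with marks above the bar for a listed STAT3, SOX4 or GABPa peak. Among the members a mark stands at Lyl1 only, whereas Runx1, with 58 intervals, leads the partners.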

How the data were processed

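The peak lists are used as the authors deposited them. Per the submitters' processing notes, CASAVA 1.7, Bowtie2, HOMER, SAMtools, Picard, MACS2 and the build mm10 were used, with no role or setting given. For the ChIP and control libraries, cells were fixed in 1% formaldehyde for 10 min, per the labels' protocols. No fixation was recorded for the ATAC library. Per the file headers, each ChIP peak has a tag count, taken as reads in the peak. As score, the authors gave −10 log10 of the caller's p-value. The deposited fold is a ratio over background, and the deposited false discovery rate is in percent. The ChIP lists hold folds of at least 10.01, so weaker peaks are missing.

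Members were matched by gene name. ATAC entries with the same position were counted once. Overlap needed 1 bp, and distances are the authors'. Gene bodies, starts and sequences are from RefSeq (GRCm38.p6). Motifs were searched on both strands. The overlap search was checked against a plain search on ATAC intervals of 1 chromosome, and the motif search on random sequences with planted motifs. Tables were handled in Python 3.11.15 with pandas 2.3.3 and numpy 2.4.6. Exact intervals came from scipy 1.17.1, and plots from matplotlib 3.10.9.

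The members, partner list, markers and motifs were chosen with earlier results of these data known. All members were named with every factor peak and every interval at a start, the partners with a factor peak within 1000 bp of a start, and up to 3 partners most like each member. Other genes were named after their values were seen. Some markers and a partner gene are not reported here by name, and that partner is not drawn. With 1 library per group, no test was made.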

Additional observations from a re-analysis of the deposited data

How the results depend on the processing

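All 8 members had an interval within 500 bp of a start (59.1% of all genes) and within 5000 bp (89.8%). All 8 also had one within 1000 bp of either end of the RefSeq entry, 3′ ends included (65.5% of coding genes). Ldb1 and Lmo2 had it at the 3′ end only, so this last count is not one of open starts. The 1 member with a factor peak kept it with peaks at or above the median score (12.7% of all genes), without repeats (15.6%) and within 5000 bp (9.65%). Within 1000 bp there were 0 (3.92% of all genes). By coordinates, an alternative chosen after seeing the data, 6 members had a factor peak within 100000 bp (57.0% of coding genes). The Lyl1 peak was still open by its centre, as were 75.0% of all STAT3 peaks. With at least 50% of the peak required to be covered the count was 0, against 73.7% of all STAT3 peaks. The 69 intervals became 109 entries with repeats of an interval counted, 68 after merging within 100 bp, 62 without repeats and 57 by coordinates (also chosen after seeing the data). Within 10000 bp of a member, 3 intervals carried other names, against 0 in the gene and its upstream 5000 bp. Adding up, for each motif, the windows that held it gave 12, from 7 different windows, and 6, from 3 windows, with bases inside ATAC intervals only. No paired analysis was possible because each group had 1 library. What depth limits in the factor lists cannot be said, as no total is given.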
